A study of Mus musculus with 9 samples.

Results

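The clustered protocadherins are cadherin-like adhesion proteins of neurons whose genes sit side by side in the alpha, beta and gamma clusters of mouse chromosome 18. All gene names beginning with *Pcdha*, *Pcdhb* or *Pcdhg* were taken as members, which gave 58 of the 25239 genes listed, with 14 in the alpha, 22 in the beta and 22 in the gamma cluster. Their RNA was measured by bulk RNA-Seq in whole retinas of C57BL/6J mice at postnatal day 42, in 9 libraries that each pooled both retinas of a mouse. There were 3 +/+ mice, 3 Rbpms-CreERT2/+ mice (Cre/+) and 3 Rbpms-CreERT2/CreERT2 mice (Cre/Cre) from shared litters. In the knock-in mice, CreERT2, a Cre recombinase made to enter the nucleus by tamoxifen, is translated from the transcript of *Rbpms*, an RNA-binding protein gene of retinal ganglion cells. The labels of these libraries name neither a floxed allele nor a treatment. A whole retina holds few ganglion cells beside its photoreceptors, so a level given here is a sum over all retinal cell types. In such bulk samples, fewer cells of a type and less RNA per cell cannot be told apart.

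A neuron switches on a small set of these genes by choosing among their promoters, and the combined proteins pair only with the same combination on another membrane. This gives each neuron an identity by which branches of the same cell recognise and avoid each other. In the retina, the gamma cluster is known for the self-avoidance of starburst amacrine dendrites and for the survival of interneurons and ganglion cells. Members of the alpha and gamma clusters each begin with a first exon of their own, which encodes the extracellular and transmembrane parts and is spliced to constant exons shared by the whole cluster. Members of the beta cluster have no constant exons. The C-type members at the ends of the alpha and gamma clusters differ from the rest in that they are expressed broadly rather than by chance choice.

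In the mm10 coordinates of the gene tables, the alpha cluster spans positions 36930285 to 37188897 of chromosome 18. The beta cluster follows at 37264998 to 37521419 and the gamma cluster at 37661775 to 37841872, all on the plus strand. The starts of all 58 members equal those in RefSeq's annotation of GRCm38.p6. In GENCODE M21, 18 of the 22 beta members have a single exon. The constant exons of the alpha cluster lie at 37156155 to 37156213, 37159265 to 37159353 and 37184946 to 37187657, with lengths of 59, 89 and 2712 bases. Those of the gamma cluster lie at 37825021 to 37825079, 37833265 to 37833353 and 37839903 to 37841873, with lengths of 59, 89 and 1971 bases. Reads from the constant exons fit every member of the cluster, so the split of alpha and gamma levels among members rests on how the software shared these reads out and is uncertain.

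Levels are given as TPM, a transcript abundance that is scaled for gene length and for the total of the library and is therefore comparable between genes. *Pcdhgc3*, a C-type gamma member known to promote dendrite branching, had the highest level of all members. It stood at 50.1, 48.2 and 58.3 TPM in +/+, at 49.1, 48.8 and 52.5 TPM in Cre/+, and at 46.9, 49.2 and 54.3 TPM in Cre/Cre. It ranked first in the gamma cluster in 9 of 9 libraries, and the ranges of the 3 genotypes overlapped. *Pcdhgc4*, the C-type member on which neuronal survival depends, ranked second in the cluster in 9 of 9 libraries. Its levels were 29.7, 26.1 and 32.4 TPM in +/+, 25.5, 24.7 and 26.1 TPM in Cre/+, and 21.5, 28.7 and 27.1 TPM in Cre/Cre. The lowest value came from replicate 1 of Cre/Cre and the genotypes overlapped. *Pcdhgc5*, the remaining C-type gamma member, was lower, at 7.50, 7.40 and 6.82 TPM in +/+, 7.10, 7.76 and 6.66 TPM in Cre/+, and 5.87, 6.59 and 9.25 TPM in Cre/Cre. Its lowest and highest values both came from Cre/Cre libraries.

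The C-type pair of the alpha cluster differed from each other in level. *Pcdhac2*, which is needed for the spacing of serotonergic axons, stood at 16.1, 19.9 and 20.1 TPM in +/+, 19.0, 21.4 and 17.7 TPM in Cre/+, and 14.2, 16.1 and 23.4 TPM in Cre/Cre. It was the highest alpha member in 9 of 9 libraries, and its genotypes overlapped. *Pcdhac1* stood at 3.13, 3.78 and 2.77 TPM in +/+, 4.03, 6.13 and 5.10 TPM in Cre/+, and 2.76, 3.84 and 2.70 TPM in Cre/Cre. All 3 Cre/+ libraries were above all +/+ and all Cre/Cre libraries, while +/+ and Cre/Cre overlapped. The 5 C-type members together made up 17.0% to 19.5% of the summed TPM of the 58 members.

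Of the variable alpha members, *Pcdha7* was the highest and *Pcdha4* came next by mean level. *Pcdha7* stood at 7.62, 11.3 and 7.58 TPM in +/+, 8.08, 9.85 and 8.38 TPM in Cre/+, and 5.12, 7.07 and 6.25 TPM in Cre/Cre. All Cre/Cre libraries were below all others. The means of the other variable alpha members over 9 libraries were 4.86 TPM for *Pcdha12*, 4.70 for *Pcdha2*, 4.60 for *Pcdha9*, 4.49 for *Pcdha3*, 4.25 for *Pcdha6*, 3.96 for *Pcdha10*, 3.73 for *Pcdha5*, 3.26 for *Pcdha11* and 1.85 for *Pcdha1*. *Pcdha8* was the lowest of the cluster, with a range of 0.529 to 1.49 TPM. Spearman's rho between the level of the 12 variable alpha members and their order along the chromosome was 0.01, given as a description across genes.

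The beta members were led by *Pcdhb17*, *Pcdhb9* and *Pcdhb20*, which held the first 3 places of the cluster in 9 of 9 libraries. *Pcdhb17* stood at 27.3, 24.1 and 28.2 TPM in +/+, 24.3, 23.7 and 25.8 TPM in Cre/+, and 22.5, 23.4 and 24.2 TPM in Cre/Cre. *Pcdhb9* stood at 27.4, 24.6 and 24.7 TPM in +/+, 26.6, 18.9 and 23.7 TPM in Cre/+, and 19.2, 24.8 and 22.5 TPM in Cre/Cre. *Pcdhb20* stood at 25.5, 20.5 and 22.4 TPM in +/+, 23.6, 24.8 and 24.8 TPM in Cre/+, and 18.2, 25.7 and 19.8 TPM in Cre/Cre. For each of these 3 members the genotypes overlapped. The following places were held by *Pcdhb22* at a mean of 15.4 TPM, *Pcdhb12* at 12.0, *Pcdhb16* at 11.6, *Pcdhb14* and *Pcdhb19* at 11.3 each, and *Pcdhb18* at 10.7. Means between 5 and 10 TPM were found for *Pcdhb11* (9.64), *Pcdhb10* (9.35), *Pcdhb8* (9.07), *Pcdhb15* (9.02), *Pcdhb7* (8.56), *Pcdhb6* (7.81), *Pcdhb3* (7.53), *Pcdhb13* (7.41), *Pcdhb2* (7.12), *Pcdhb21* (6.49), *Pcdhb4* (5.62) and *Pcdhb5* (5.21). *Pcdhb1*, the first of the cluster, was far below the rest. It stood at 0.780, 0.376 and 0.474 TPM in +/+, 1.06, 1.12 and 1.01 TPM in Cre/+, and 0.692, 0.366 and 0.522 TPM in Cre/Cre. All Cre/+ libraries lay above the others, but the deposited coverage corresponds to only 7.57 to 23.3 reads per library for this gene, and its mean fell below the limit for testing. The level of the 22 beta members tended to rise along the chromosome (rho 0.62, across genes).

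Among the variable gamma members, *Pcdhga4* had the highest mean. It stood at 18.8, 19.6 and 18.3 TPM in +/+, 21.5, 15.1 and 15.5 TPM in Cre/+, and 15.9, 19.4 and 19.7 TPM in Cre/Cre, with overlap of all genotypes. Means of the A type were 16.7 TPM for *Pcdhga11*, 13.9 for *Pcdhga3*, 13.1 for *Pcdhga2*, 12.7 for *Pcdhga12*, 11.5 for *Pcdhga1*, 10.9 for *Pcdhga10*, 9.87 for *Pcdhga5*, 8.17 for *Pcdhga7*, 7.81 for *Pcdhga9*, 6.75 for *Pcdhga6* and 5.50 for *Pcdhga8*. Means of the B type were 17.6 TPM for *Pcdhgb6*, 13.9 for *Pcdhgb7*, 13.8 for *Pcdhgb2*, 10.8 for *Pcdhgb1*, 7.11 for *Pcdhgb8* and 5.12 for *Pcdhgb5*. *Pcdhgb4* was the lowest of the gamma cluster, at 3.65, 4.21 and 4.54 TPM in +/+, 5.17, 4.10 and 5.67 TPM in Cre/+, and 7.28, 4.10 and 5.38 TPM in Cre/Cre. The A and B types had similar medians, 11.2 TPM over 12 members and 10.8 TPM over 7, against 4.37 TPM over the 12 variable alpha members. Spearman's rho between level and order along the chromosome was -0.19 for the A type and 0.18 for the B type, across genes.

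**Figure D1:**
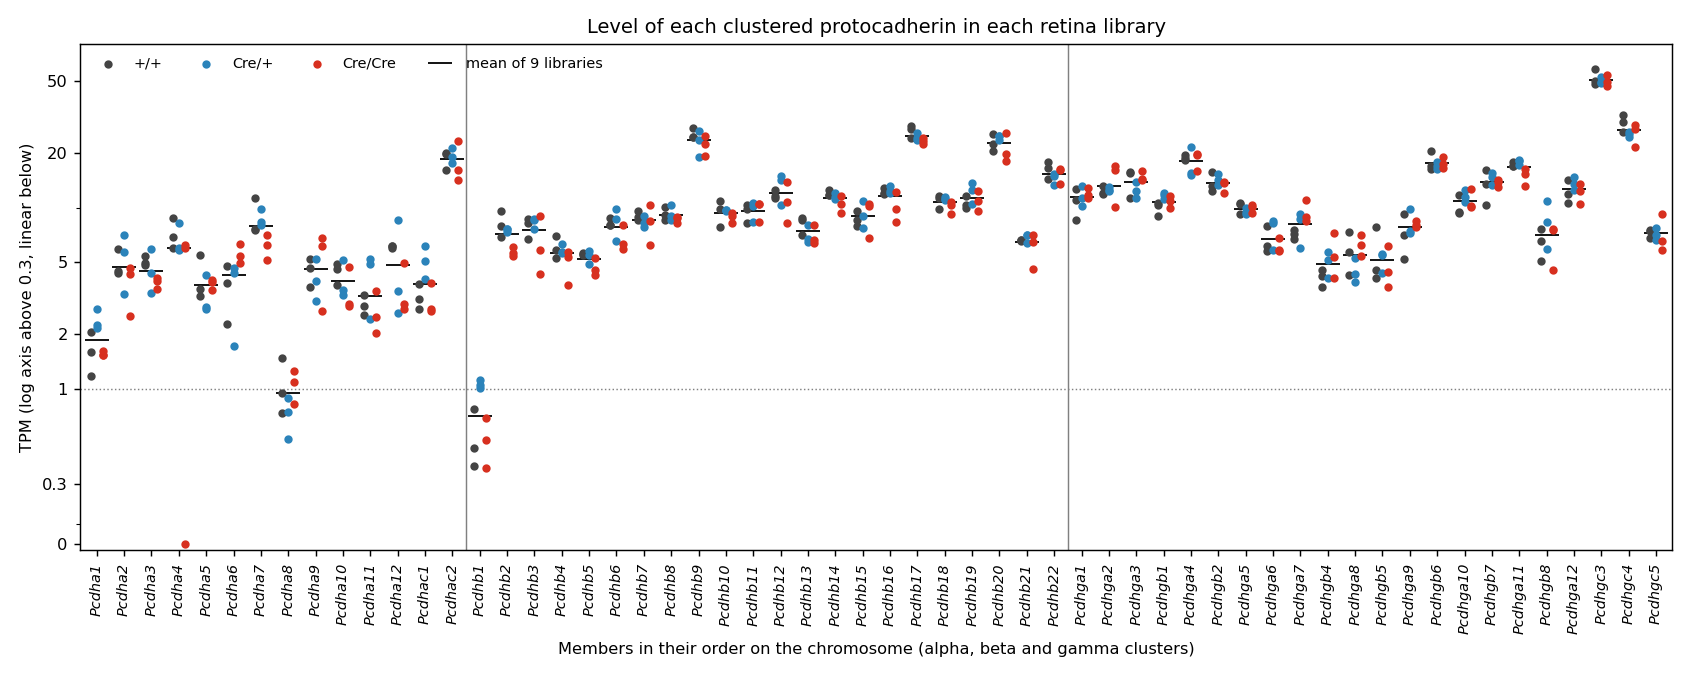
TPM of each of the 58 members in each of 9 libraries, on an axis that is logarithmic above 0.3 and linear below, with members in chromosomal order and a bar at the mean. *Pcdhgc3*, *Pcdhgc4* and *Pcdhac2* stand above their neighbours in every genotype, *Pcdhb1* and *Pcdha8* lie near 1 TPM, and 1 Cre/Cre library lists *Pcdha4* at 0.

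One value stood apart from all others of the family. *Pcdha4* was at 6.01, 6.85 and 8.78 TPM in +/+ and at 5.88, 8.19 and 6.00 TPM in Cre/+, and in Cre/Cre it was listed at 0 in replicate 1 and at 6.03 and 6.21 TPM in replicates 2 and 3. The gene tables also hold *Gm37013*, a readthrough gene model at 36952648 to 37841872 that starts beside the first exon of *Pcdha4* (36952689) and runs to the end of the gamma cluster. *Gm37013* stood at 1.00 to 2.12 TPM in the 8 other libraries and at 5.30 TPM in replicate 1 of Cre/Cre. The sum of both was thus 5.30 TPM in that library and 7.21 to 10.9 TPM in the others, so that it remained the lowest of 9. For *Pcdha7*, the model *Gm38667* starts at the same place and took 1.92 TPM in replicate 1 of Cre/Cre, where no other library exceeded 1.13 TPM. The sum of *Pcdha7* and *Gm38667* was 7.04 to 11.3 TPM. The model *Gm38666*, at the first exon of *Pcdha6*, was listed at 0 in all libraries. These 3 models were chosen after the values of *Pcdha4* had been seen.

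**Figure D2:**
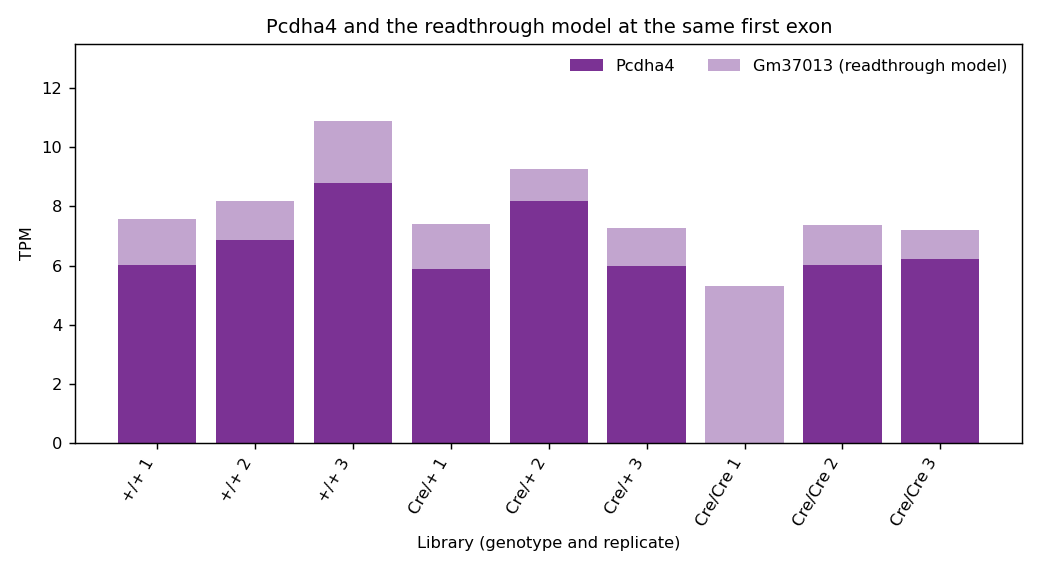
Stacked bars of the TPM of *Pcdha4* and of the readthrough model *Gm37013* in each of 9 libraries. In replicate 1 of Cre/Cre the whole bar of 5.30 TPM belongs to the readthrough model, while *Pcdha4* makes up most of the bar in the other 8 libraries.

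The spread between libraries was widest for the alpha members. It includes how the software shared out reads of the constant exons and of the readthrough models, and this part was not tested. *Pcdha4*, at 38.8%, holds the library that lists it at 0. The coefficient of variation within genotypes, which is the pooled SD as a percentage of the mean, had a median of 23.4% over the 13 alpha members tested. The range was 17.0% for *Pcdha1* to 40.8% for *Pcdha12*. The median was 12.1% over 21 beta members and 13.4% over 22 gamma members. For comparison it was 10.8% over the 9558 genes tested with a mean in the members' range of 1.85 to 50.8 TPM, whose median level of 16.7 TPM lay above that of the alpha members tested (4.49 TPM). Over the 5183 genes in the range of the alpha members alone, 1.85 to 18.7 TPM, it was 15.0% at a median level of 7.43 TPM. How far the lower level moves with the wider spread of the alpha members was not tested. *Pcdha12* stood at 6.18, 6.19 and 6.02 TPM in +/+, but at 3.46, 2.63 and 8.55 TPM in Cre/+, and 2.78, 4.97 and 2.95 TPM in Cre/Cre. The highest and the lowest of its 9 values were thus both found in Cre/+. The spread of the cluster sum, in which the errors of single members average out by construction, was 6.16% for alpha, 6.07% for beta and 3.53% for gamma. For 17 single-exon beta members tested, the coverage corresponds to a median of 150 to 673 reads per gene and library. Counting error alone would give a median coefficient of variation of 8.16% for these genes, counted as read pairs, against a median of 12.1% observed.

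**Figure D3:**
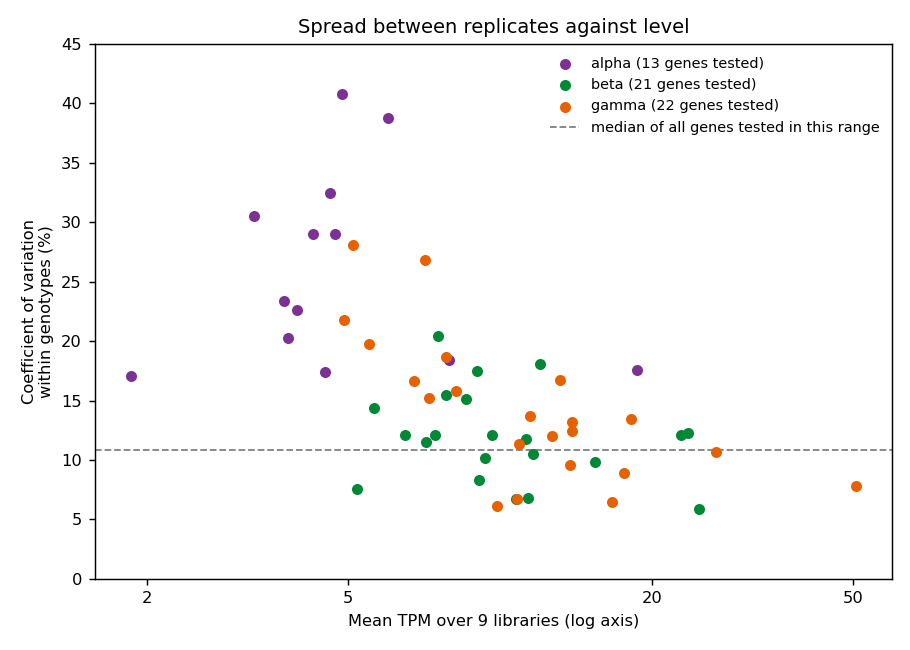
Coefficient of variation within genotypes (%) against the mean TPM over 9 libraries (logarithmic axis) for the 56 members tested, with a dashed line at the median of 10.8% over 9558 genes of the same range of levels. All 13 alpha members lie above the line, at 17.0% to 40.8%.

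The rank order of the 58 members was nearly the same in every retina. Spearman's rho between pairs of libraries, across members, was 0.896 to 0.958 within genotypes (9 pairs) and 0.872 to 0.963 between genotypes (27 pairs). Within the alpha cluster alone it was 0.429 to 0.938 within and 0.297 to 0.912 between genotypes, and in the beta and gamma clusters no pair fell below 0.839. These values share each library among several pairs and carry no test.

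For the libraries as a whole, the depth was 4.05 to 4.65 aligned gigabases, or 27.0 to 31.0 × 10⁶ reads. *Rbpms* itself was at 41.7 ± 2.85 TPM in +/+, 32.2 ± 0.888 TPM in Cre/+ and 21.0 ± 2.80 TPM in Cre/Cre (mean ± SD, n = 3 each). Replicate 1 of Cre/Cre stood apart. The ribosomal RNA gene *Rn45s* took 9.21% of its TPM against 0.0827% to 0.336% in the others, and its median-ratio scaling factor was 0.917 against 0.985 to 1.03. The 4 starburst amacrine markers were present in all libraries, with sums of 51.1 to 60.1 TPM. The summed TPM of 7 retinal ganglion cell markers was 1503 to 1591 in +/+, 1442 to 1497 in Cre/+ and 1106 to 1338 in Cre/Cre, with 0 of 7 genes called in limma. Before adjustment, 6 of them were lower in Cre/Cre with p under 0.05, where 5.39% of all genes tested were. The lens markers were at 902 TPM in replicate 2 of Cre/Cre and at 10.7 to 201 TPM in the others. *Xist* was under 3.2 TPM in 1 Cre/+ and 2 Cre/Cre libraries and at 516 to 585 TPM in the other 6, so the libraries with little *Xist* were spread unevenly over the genotypes. The part of these differences in the member values was not tested, except as given with the alternatives.

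The summed level of each cluster was then compared between genotypes. The alpha sum was 76.0, 78.0 and 74.9 TPM in +/+, 73.6, 79.3 and 77.8 TPM in Cre/+, and 57.8, 69.8 and 70.1 TPM in Cre/Cre. All Cre/Cre libraries were below all others, with a mean of 65.9 ± 7.03 TPM against 76.3 ± 1.62 TPM in +/+ (SD, n = 3 each), or 86.4% of +/+, and 91.7% without replicate 1. Among the 6 libraries with high *Xist*, the alpha sum was 69.8 TPM in the only Cre/Cre library and 73.6 to 79.3 TPM in the other 5. Where *Xist* was low, replicate 3 of Cre/+ had an alpha sum of 77.8 TPM. Replicates 1 and 3 of Cre/Cre, also low in *Xist*, reached 57.8 and 70.1 TPM. This split leaves 1 Cre/Cre library with high *Xist* and no +/+ library with low *Xist*. The part of *Xist* in the alpha sum was therefore not tested. The beta sum was 255, 235 and 248 TPM in +/+, 247, 240 and 245 TPM in Cre/+, and 197, 241 and 227 TPM in Cre/Cre. The beta mean in Cre/Cre was 222 ± 22.3 TPM against 246 ± 10.5 TPM in +/+, or 90.0%, and 95.0% without replicate 1, with overlap of the genotypes. The gamma sum was 294, 277 and 306 TPM in +/+, 296, 296 and 288 TPM in Cre/+, and 284, 294 and 301 TPM in Cre/Cre. The gamma mean was 293 TPM in +/+ and in Cre/Cre and 294 TPM in Cre/+, with SDs of 14.9, 8.87 and 4.44 TPM in that order. In Cre/+ the alpha mean was 76.9 ± 2.94 TPM and the beta mean 244 ± 3.99 TPM.

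Replicate 1 of Cre/Cre also differed in how the family was made up. The gamma cluster made up 52.7% of all member TPM in this library and 47.0% to 50.4% in the other 8. The ratio of the beta to the gamma sum was 0.695 there and 0.752 to 0.867 elsewhere. This library held the lowest of 9 values for 11 beta, 5 gamma and 4 alpha members. The share of all genes that were lowest in this library was not computed, so this count is no result about the members. A factor common to all genes, such as the scaling factor of a library, cancels in the share and the ratio above. Its part in the lowest values was not tested, and neither was what the high *Rn45s* share has to do with any of these values.

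**Figure D4:**
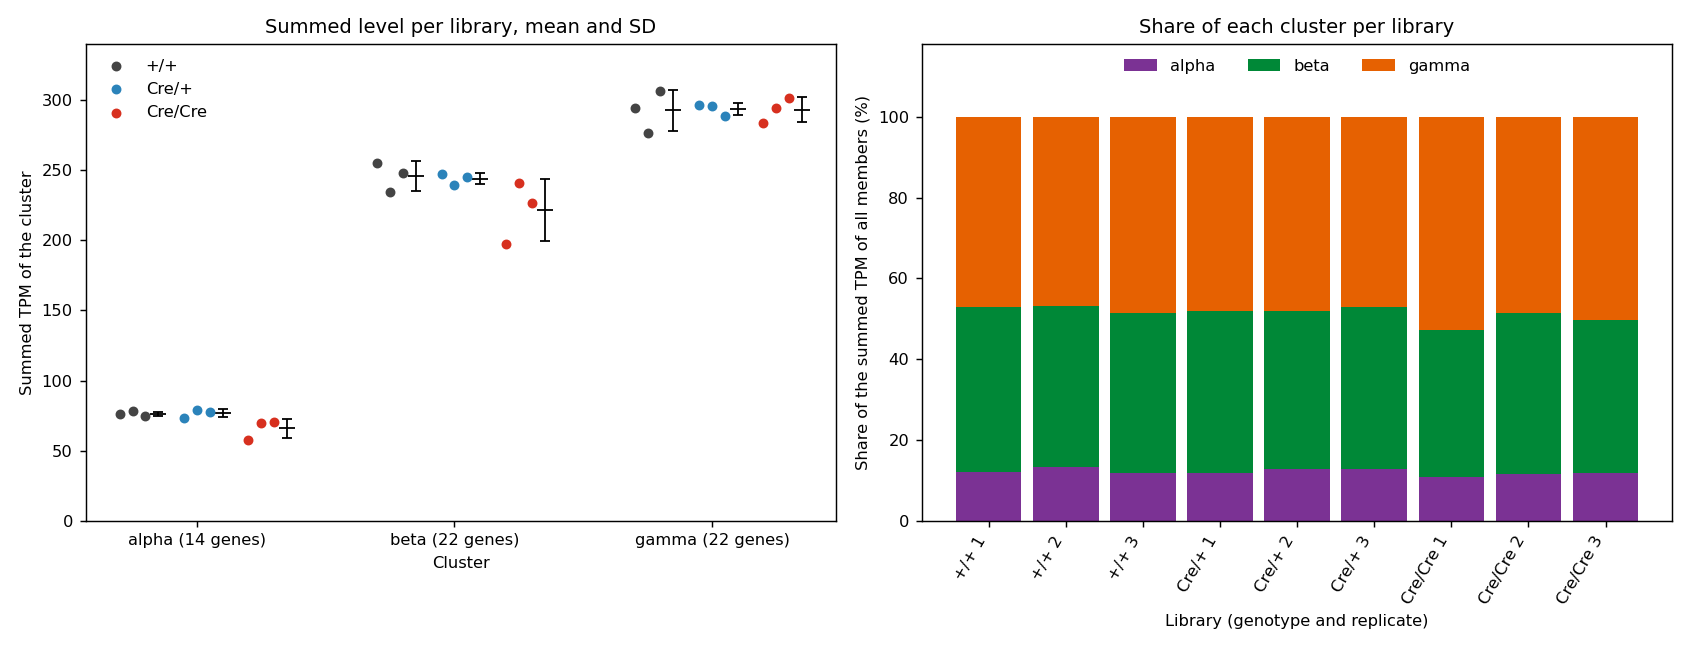
Left, summed TPM of each cluster per library, with the mean and SD of each genotype (n = 3); right, the share of each cluster in the summed TPM of all members (%), per library. The alpha sums of Cre/Cre (57.8 to 70.1 TPM) lie below all others, and the gamma share is largest in replicate 1 of Cre/Cre (52.7%).

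For single members, differences were tested with limma on log2(TPM + 1), a scale that understates the change of low genes, together with all 15198 genes with a mean of at least 1 TPM. This left 56 members, since *Pcdha8* and *Pcdhb1* fell below the limit. In Cre/+ against +/+, 0 of 56 members passed an adjusted p of 0.05, where 0.00658% of all genes did. At an unadjusted p under 0.05 there was 1 member, against 10.7% of all genes. This was *Pcdhac1*, whose values above did not overlap between Cre/+ and +/+, with a log2 fold change of 0.52 ± 0.19 (SE) (adjusted p = 0.397). Without replicate 2 of Cre/+ or replicate 3 of +/+ its log2 fold change was 0.40 and 0.44, and its unadjusted p was no longer under 0.05. The count of 1 was 0 without replicate 2 of Cre/+, 2 without replicate 2 of +/+ or replicate 1 of Cre/Cre, and 3 without replicate 1 of +/+ or replicate 1 or 3 of Cre/+. Over all 15198 genes tested the count was 1157 without replicate 2 of Cre/+ and 1170 without replicate 2 of +/+. It was 1926 without replicate 1 of +/+ and 1424 without replicate 1 of Cre/+. No share over all genes is given for the other left-out libraries, so the counts are no result about the members. In the beta cluster the smallest p belonged to *Pcdhb19*, which stood at 11.6, 10.0 and 10.3 TPM in +/+, 12.5, 10.5 and 13.7 TPM in Cre/+, and 9.58, 12.4 and 10.9 TPM in Cre/Cre. The genotypes overlapped, and its log2 fold change in Cre/+ was 0.18 ± 0.13 (adjusted p = 0.617). In the gamma cluster the smallest p belonged to *Pcdhgc4*, with a log2 fold change of -0.20 ± 0.11 (adjusted p = 0.514). The genotypes did not overlap for 3 members, *Pcdha1*, *Pcdhac1* and *Pcdhgb1*, all higher in Cre/+, where 22.2% of all genes tested did not overlap and 11.9% were so and higher. The medians were -0.05 over the alpha, 0.00 over the beta and 0.05 over the gamma members tested, with 0.00 over all genes tested.

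In Cre/Cre against +/+, 0 of 56 members again passed an adjusted p of 0.05 in limma, where 0.00658% of all genes did. At an unadjusted p under 0.05 there were 3 members, against 6.97% of all genes. *Pcdhb2* stood at 9.59, 6.89 and 7.97 TPM in +/+, 7.30, 7.66 and 7.60 TPM in Cre/+, and 5.59, 5.43 and 6.10 TPM in Cre/Cre. All Cre/Cre libraries were below all others, and the log2 fold change was -0.44 ± 0.14 (adjusted p = 0.581). *Pcdha7*, whose Cre/Cre libraries were also below all others, had a log2 fold change of -0.45 ± 0.16 (adjusted p = 0.647). With *Gm38667* added it was -0.29 ± 0.15 (adjusted p = 0.750), and its unadjusted p was no longer under 0.05. *Pcdhga7* stood at 7.56, 7.12 and 6.72 TPM in +/+, 9.18, 8.70 and 6.00 TPM in Cre/+, and 11.0, 8.86 and 8.40 TPM in Cre/Cre. Its Cre/Cre and +/+ libraries did not overlap, while Cre/+ spanned both, and its log2 fold change was 0.35 ± 0.16 (adjusted p = 0.704). Without replicate 1 of Cre/Cre, *Pcdhb2* was at -0.43 ± 0.15 and still under that limit, while *Pcdha7* (-0.34 ± 0.17) and *Pcdhga7* (0.24 ± 0.17) were not. *Pcdhb2* was no longer under it without replicate 1 of +/+ (-0.33 ± 0.16), and neither was *Pcdha7* without replicate 2 of +/+ (-0.28 ± 0.16). *Pcdhga7* was no longer under it without replicate 2 (0.35 ± 0.18) or replicate 3 of +/+ (0.31 ± 0.18). With *Xist* as a covariate *Pcdha7* (-0.33 ± 0.20) was no longer under it, while *Pcdhb2* (-0.47 ± 0.18) and *Pcdhga7* (0.48 ± 0.19) still were. Without replicate 2 of Cre/Cre the count at an unadjusted p under 0.05 was 12 members, and without replicate 3 it was 6. Over all 15198 genes tested such counts moved as well, with 1069, 756 and 778 without replicate 1, 2 and 3 of +/+. The count over all genes without replicate 2 or 3 of Cre/Cre is not given here, so these counts are no result about the members.

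For *Pcdha4*, the change on the log2 scale in Cre/Cre was -1.14 ± 0.77 (adjusted p = 0.858), which rested on the library that lists it at 0. Without that library it was -0.19 ± 0.18, and with *Gm37013* added it was -0.37 ± 0.16 (adjusted p = 0.700), where its unadjusted p came under 0.05. Altogether 9 of 56 members, or 7 lower and 2 higher, did not overlap between Cre/Cre and +/+, where 10.8% of all genes did not, with 8.05% lower and 2.7% higher. Those lower were *Pcdha3*, *Pcdha7*, *Pcdha12*, *Pcdhb2*, *Pcdhb5*, *Pcdhb14* and *Pcdhga11*, and those higher were *Pcdha6* and *Pcdhga7*. For *Pcdha3* the values were 4.95, 5.40 and 4.80 TPM in +/+ and 3.95, 4.08 and 3.57 TPM in Cre/Cre, and for *Pcdha6* they were 4.76, 2.29 and 3.84 TPM and 6.29, 5.40 and 4.98 TPM. Members named for not overlapping alone were chosen after their values were seen.

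By cluster, the log2 fold change in Cre/Cre was below 0 for 11 of 13 alpha and 18 of 21 beta members tested but for 11 of 22 gamma members, where 57.7% of all genes tested were below 0. Their medians were -0.11, -0.13 and 0.00, with -0.02 over all genes. Without replicate 1 of Cre/Cre these counts were 9 of 13, 16 of 21 and 10 of 22, where 43.8% of all genes were below 0. After median-ratio scaling they were 10, 18 and 7, where 49.0% of all genes were. With FPKM in place of TPM they were 11, 20 and 12, where 72.1% were. With *Xist* as a covariate they were 10, 16 and 9, where 51.9% were.

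**Figure D5:**
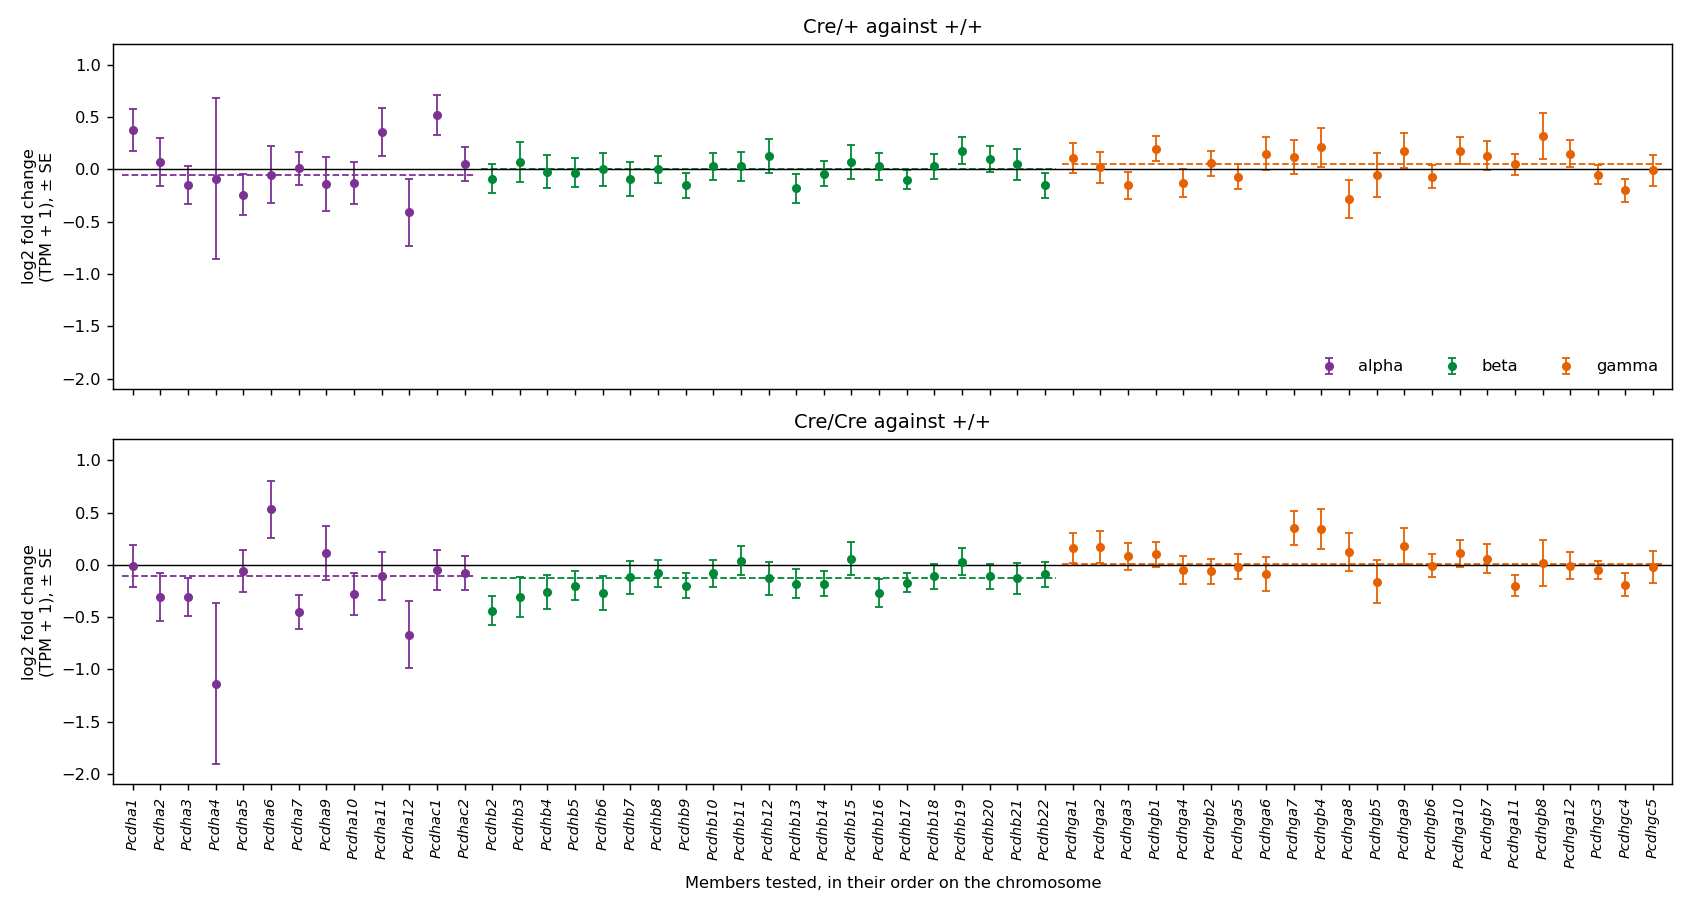
Log2 fold change of each of the 56 members tested, on log2(TPM + 1), with its standard error, in Cre/+ (top) and Cre/Cre (bottom) against +/+; dashed lines mark the median of each cluster. In Cre/Cre the alpha and beta medians lie at -0.11 and -0.13 and the gamma median at 0.00, and *Pcdha4* has the widest error, 0.77.

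In Cre/Cre against Cre/+, 0 of 56 members passed an adjusted p of 0.05 in limma, where 0.0132% of all genes did. At an unadjusted p under 0.05 there were 6 members, against 6.58% of all genes. Of these, 5 were lower and 1 was higher in Cre/Cre, where 638 of all 15198 genes tested were lower and 362 higher. The higher one was *Pcdhga8*, and the lower ones included *Pcdha7* and *Pcdhb16*. *Pcdhac1* had a log2 fold change of -0.57 ± 0.19 (adjusted p = 0.700), and the 3 Cre/+ libraries were its highest. *Pcdhb2* had -0.35 ± 0.14 (adjusted p = 0.740). *Pcdhga11*, at 17.8, 17.0 and 17.0 TPM in +/+, 18.2, 17.1 and 18.2 TPM in Cre/+, and 13.1, 15.3 and 16.4 TPM in Cre/Cre, had -0.25 ± 0.10 (adjusted p = 0.740). Its Cre/Cre libraries were below all others. Without replicate 1 of Cre/Cre the count of 6 was 3, and without replicate 2 it was 10. Over all 15198 genes tested the count also moved, to 1037 without replicate 1 and 648 without replicate 2 of Cre/+. It is not given here without a Cre/Cre library, so these counts are no result about the members. This comparison and both comparisons with +/+ share libraries pairwise, so their values are not independent.

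In a trend over 0, 1 and 2 knock-in alleles, 0 of 56 members passed an adjusted p of 0.05 in limma, where 0.00658% of all genes did, and 4 had an unadjusted p under 0.05, against 6.24% of all genes. The change per allele was -0.22 ± 0.07 for *Pcdhb2* (adjusted p = 0.669), -0.22 ± 0.09 for *Pcdha7* (adjusted p = 0.758) and 0.18 ± 0.08 for *Pcdhga7* (adjusted p = 0.778). The remaining member was *Pcdha12*, at -0.34 ± 0.15. Without replicate 2 of Cre/Cre the count was 8, and without replicate 1 of Cre/Cre, or replicate 2 or 3 of +/+, it was 2. Over all genes tested the count was 637 without replicate 2 and 755 without replicate 3 of +/+. It is not given here without a Cre/Cre library, so these counts are no result about the members.

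Of 13 protocadherins outside the clusters, 12 were tested and 0 were called in either comparison with +/+. The highest were *Cdhr1*, a photoreceptor cadherin needed for outer segment discs, at a mean of 797 TPM, and *Pcdh15*, a tip-link protein of hair cells also made by photoreceptors, at 102 TPM. Both exceeded every clustered member. *Pcdh1* and *Pcdh8* were lower in both knock-in genotypes at an unadjusted p under 0.05, where 5.82% of all genes were lower in Cre/+ and 5.39% in Cre/Cre. *Pcdh1* was at 23.5 ± 1.40 TPM in +/+, 18.5 ± 2.83 TPM in Cre/+ and 17.4 ± 3.18 TPM in Cre/Cre (SD, n = 3 each), with log2 fold changes of -0.34 ± 0.13 (adjusted p = 0.405) and -0.42 ± 0.13 (adjusted p = 0.543). *Pcdh8* had -0.26 ± 0.10 (adjusted p = 0.404) and -0.22 ± 0.10 (adjusted p = 0.679).

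The promoters of the clustered members are chosen by looping with CTCF and cohesin and are silenced by DNA methylation and SMCHD1. All 20 such regulators were tested and 0 were called in either comparison with +/+. *Rad21*, a cohesin subunit, and *Ctcf* were the highest, at means of 157 and 125 TPM. In Cre/+, 4 regulators were higher at an unadjusted p under 0.05, where 4.9% of all genes tested were. These were *Wapl*, which releases cohesin, at 0.26 ± 0.08 (adjusted p = 0.377), *Smchd1* at 0.31 ± 0.11 (adjusted p = 0.404), *Stag2*, a cohesin subunit, at 0.34 ± 0.14 (adjusted p = 0.429) and *Nipbl*, the cohesin loader, at 0.22 ± 0.10 (adjusted p = 0.452). In Cre/Cre the count at an unadjusted p under 0.05 was 0 of 20, where 1.58% of all genes were higher and 5.39% lower, and whether the genotypes differ in this was not tested. *Smchd1* itself stood at 39.2 ± 3.76 TPM in +/+, 48.6 ± 2.79 TPM in Cre/+ and 42.5 ± 7.73 TPM in Cre/Cre.

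The cytoplasmic parts of the proteins bind or inhibit kinases and the WAVE complex, which drives actin branching. Of 20 such partners, all tested, 0 were called in either comparison with +/+. The highest were *Cyfip2*, a WAVE complex subunit, at a mean of 195 TPM, and *Rac1*, the GTPase that activates the complex, at 164 TPM. *Abi1*, a further subunit, was the only partner with an unadjusted p under 0.05 in Cre/+, at 0.27 ± 0.08 (adjusted p = 0.377), against 4.9% of all genes that were higher, and in Cre/Cre there were 0.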

How the data were processed

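Whole retinas of 9 mice at P42 were sequenced from strand-specific poly(A) libraries as paired reads of 150 bases. According to the submitters' processing notes and the methods, the authors used FastQC, Trimmomatic, HISAT2 with mm10, SAMtools, StringTie and DESeq2, and versions and annotation are not given in the sources used here. The deposited gene tables hold TPM, which sums to 1000000 per library, FPKM and mean coverage per base as a signal, and no read counts, so the authors' DESeq2 test was not repeated.

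Rows sharing a gene name were added up in TPM. Testing was limited to genes whose mean reached 1 TPM, on log2(TPM + 1) with limma 3.58.1 (trend, robust) in R 4.3.3, with all 9 libraries in 1 model and Benjamini-Hochberg adjustment over 15198 genes. Scripts were tested on simulated data. Reads per beta gene were computed as coverage times gene length over read length. Tables and plots were made with Python 3.11.15, pandas 2.3.3, scipy 1.17.1 and matplotlib 3.10.9. Each library is a separate mouse per the series' design text.

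The members and gene lists were chosen with earlier results of these data known. Per-library values are given for the 3 highest members of each cluster, the C-type members, the lowest members and those with a printed fold change, which are the members with an unadjusted p under 0.05 against +/+ and the smallest p of each cluster and contrast. The fold changes of *Pcdha4* and *Pcdha12* and the values of *Pcdha3*, *Pcdha6* and *Pcdha12* lie outside this rule and were chosen after they were seen. From the lists, the 2 highest genes and those with such a p are named. Sums over members were not tested. Alternatives were a pseudocount of 0.1, a filter at 0.5 TPM or none, the largest row per gene (run for the cluster sums only), FPKM, median-ratio scaling, *Xist* as a covariate, replicate number as a block, only the genotypes compared, and each library left out.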

Additional observations from a re-analysis of the deposited data

How the results depend on the processing

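With 3 mice per genotype and standard errors of 0.09 to 0.22 on the log2 scale for beta and gamma members and 0.16 to 0.77 for alpha members, small differences of single members were not detectable, and the split among alpha and gamma members depends on reads of shared exons. The count of members past an adjusted p of 0.05 was 0 in all 4 comparisons under each of 18 alternatives (17 for the trend), and the smallest adjusted p of a member ranged from 0.189 to 0.881 in Cre/+, 0.339 to 0.993 in Cre/Cre, 0.296 to 0.937 in Cre/Cre against Cre/+ and 0.458 to 1 in the trend. The trend could not be fitted with only the genotypes compared. Adding the readthrough models was an alternative chosen after seeing the data. Over these alternatives, the printed fold changes of *Pcdha7*, *Pcdhac1*, *Pcdhb19*, *Pcdhb2*, *Pcdhga11*, *Pcdhga7* and *Pcdhgc4* kept their direction in 213 of 213 cases. Those of *Pcdha4*, *Pcdha12* and the genes outside the clusters did so in 197 of 197. These counts are no evidence for the fold changes, since the genes were chosen for a small p or after they were seen. All alternatives also reuse the same libraries. Where the genotypes of a pairwise comparison did not overlap, leaving out a library could not change the direction. Taking the largest row per gene was run for the cluster sums only, which it left as they were.

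The gamma sum of Cre/Cre was 96.8% of +/+ with FPKM, the gamma sum of Cre/+ 98.6% and the beta sum of Cre/+ 97.5%, against 100%, 100% and 99.2% with TPM. With *Xist* as a covariate the medians in Cre/Cre were -0.13 over the alpha, -0.06 over the beta and 0.07 over the gamma members. Over all genes tested the median was then -0.01. With each library left out in turn, the gamma median was 0.00 to 0.10 in Cre/+ and -0.05 to 0.05 in Cre/Cre, the alpha median in Cre/Cre was -0.26 to -0.09, the beta sum of Cre/+ was 97.0% to 101% of +/+ and the gamma sum of Cre/+ 97.7% to 103%. The cause was not tested. Replicate numbers shared across genotypes showed no common deviation (correlations of -0.116 to 0.128 over 15198 genes). With replicate number as a block, 0 of 56 members passed in every comparison. At an unadjusted p under 0.05 in limma there were 1, 3, 5 and 4 members, where 1496, 1016, 930 and 877 of all 15198 genes tested were.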
